A study of Saccharomyces cerevisiae with 2 samples.

Results

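The regions described here are 38 stretches inside the chromosomes of budding yeast where the deposited Break-chip ratio was higher after recovery with the iron chelator BPS than after recovery without it. They were taken from the 41480 probes of a tiling microarray. Members were probes over 30 kb from both chromosome ends whose signal, averaged over the probes within 2 kb either side, was more than 1 log2 unit higher with BPS. Of 38960 such interior probes 560 met this rule, or 1.44%, and members within 2 kb of each other were merged into the 38 blocks. Over the whole array, ends included, 48 regions passed the same difference. The members were chosen by this measured difference between the arrays, so every difference given for a block is a description and has no test. Each block is named by the gene at its highest probe, or by the nearest one.

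Two-colour arrays compared recovering cells with G1 cells of the same mec1 strain, WFA73, so the mutation was shared by all cells measured. In recovery with BPS, cells arrested in G1 with alpha factor were released for 1 h into 200 mM hydroxyurea, filtered, and grown for 1 h in fresh medium with 0.8 micromolar BPS. In recovery without BPS the same steps were followed with no chelator in the medium. There was 1 array for each recovery, with G1 DNA in Cy5 and recovery DNA in Cy3 on both. The labels name no G1 cells with BPS and no cells with a working Mec1, and 1 strain limits the result to that strain.

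Mec1 is the kinase that senses stalled replication forks in yeast, the relative of human ATR. Hydroxyurea blocks ribonucleotide reductase, an iron-dependent enzyme that makes deoxynucleotides, and forks in mec1 cells are known to collapse and break when the drug is present or has just been removed. BPS binds iron and keeps it from the cell, and several enzymes of DNA replication and repair carry iron. In Break-chip, DNA ends are labelled in agarose with a fluorescent nucleotide before the DNA is sheared and hybridised, so a ratio of recovery over G1 is high where labelled ends are more frequent than in G1 DNA. The comparison asked whether the chelator altered where breaks lay.

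Signal, here, is the log2 of the deposited ratio minus the median of its array, so 0 is the genome median. The sources used here do not give its numerator. The columns carry the names of the recovery samples and the design sets each recovery against G1, but the usual output of the scanner software is Cy5 over Cy3, which here would be G1 over recovery. The direction is therefore not settled, and higher or lower signal below is that of the deposited ratio and not of breakage. With recovery as the numerator the signs stand as given, and with G1 as the numerator every sign would turn for breaks, so that hills become valleys. The median ratio was 1.23 with BPS and 1.21 without BPS, and over all probes the arrays correlated at r = 0.766, where neighbouring probes are not independent. Extra copies of replicated DNA and broken ends cannot be told apart in such a ratio, and each array had its own G1 channel. An SE is taken over the probes of a window, so it holds no error between cultures.

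Inside the chromosomes, higher ratios with BPS were more frequent at this size than lower ones. Against the 560 probes more than 1 log2 unit higher with BPS stood 6 interior probes, 0.0154%, that were as much lower, all in 1 region. If the ratio is G1 over recovery, the counts change places, with 6 probes higher and 560 lower with BPS. The median smoothed difference over all interior probes was −0.05. Of the 2520 probes within 30 kb of an end, which the rule leaves out, 39 were more than 1 higher.

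**Figure D1:**
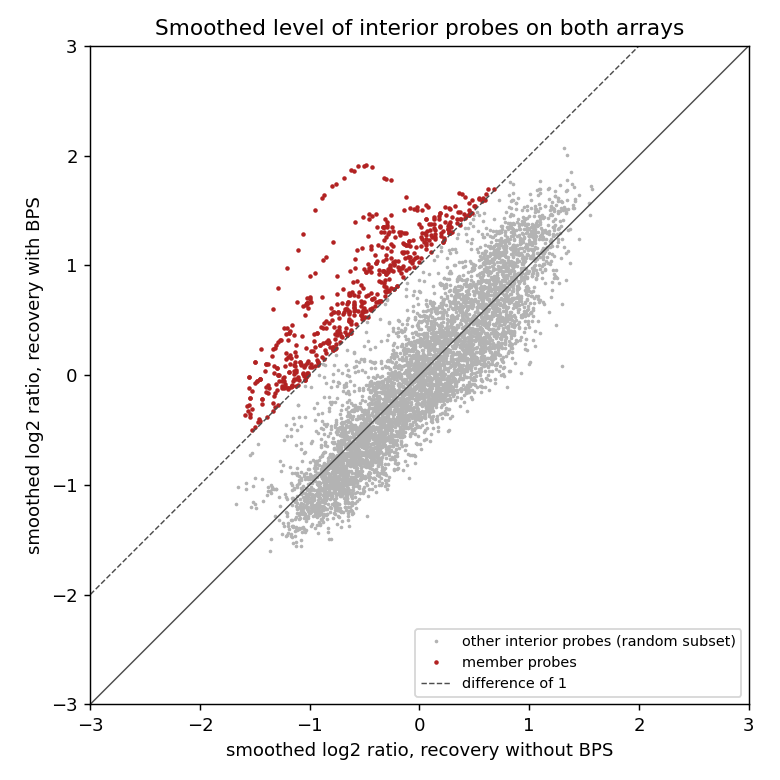
Each point is 1 interior probe, all 560 members and a random subset of the others, with its smoothed log2 ratio with BPS on the vertical axis and without BPS on the horizontal axis, as centred log2 values. Member probes lie above the dashed line of a difference of 1 by the rule, and an arc of them on the left, near 1.72 with BPS and −0.80 without BPS, is the block at YGR111W.

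The 38 blocks covered 147 kb in all and lay on 14 of the 16 chromosomes. Their length had a median of 3.19 kb and ran to 11.8 kb, and their member probes numbered from 1 to 46, with a median of 11.5. The 10 blocks with the largest peaks held 298 of the 560 members, or 53.2%, while 12 blocks had 5 or fewer. Peak differences ran from 1.00 to 2.52 with a median of 1.23. Of the single probes in blocks, before smoothing, 533 of 560 were higher with BPS and 405 were more than 1 higher. Among all interior probes 46.9% were higher and 4.07% were more than 1 higher. In 19 blocks every member probe was higher with BPS. Members lay a median of 234 kb from the nearest chromosome end, and all interior probes 216 kb. Chromosomes III and VI held no block, and their largest smoothed differences were 0.78 and 0.77. Chromosome IX had the highest share of members, 4.71% of its interior probes, followed by chromosome I with 3.54%, VII with 2.36% and XI with 2.14%. Chromosomes IV, XII and XV had 5 blocks each.

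Most blocks moved across the genome median. Over their member probes, 25 of the 38 blocks averaged above 0 with BPS and below 0 without it. A further 10 averaged above 0 on both arrays, and 3 averaged below 0 on both. The median block level was 0.84 with BPS and −0.48 without BPS. At their peak probes 21 blocks stood above the 90th percentile of interior probes with BPS, and 7 stood below the 10th without BPS. Against their surroundings, 5 to 10 kb outside the block, 20 blocks were high with BPS and low without BPS. Another 12 stood above their surroundings on both arrays, and 6 stood below them on both.

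**Figure D2:**
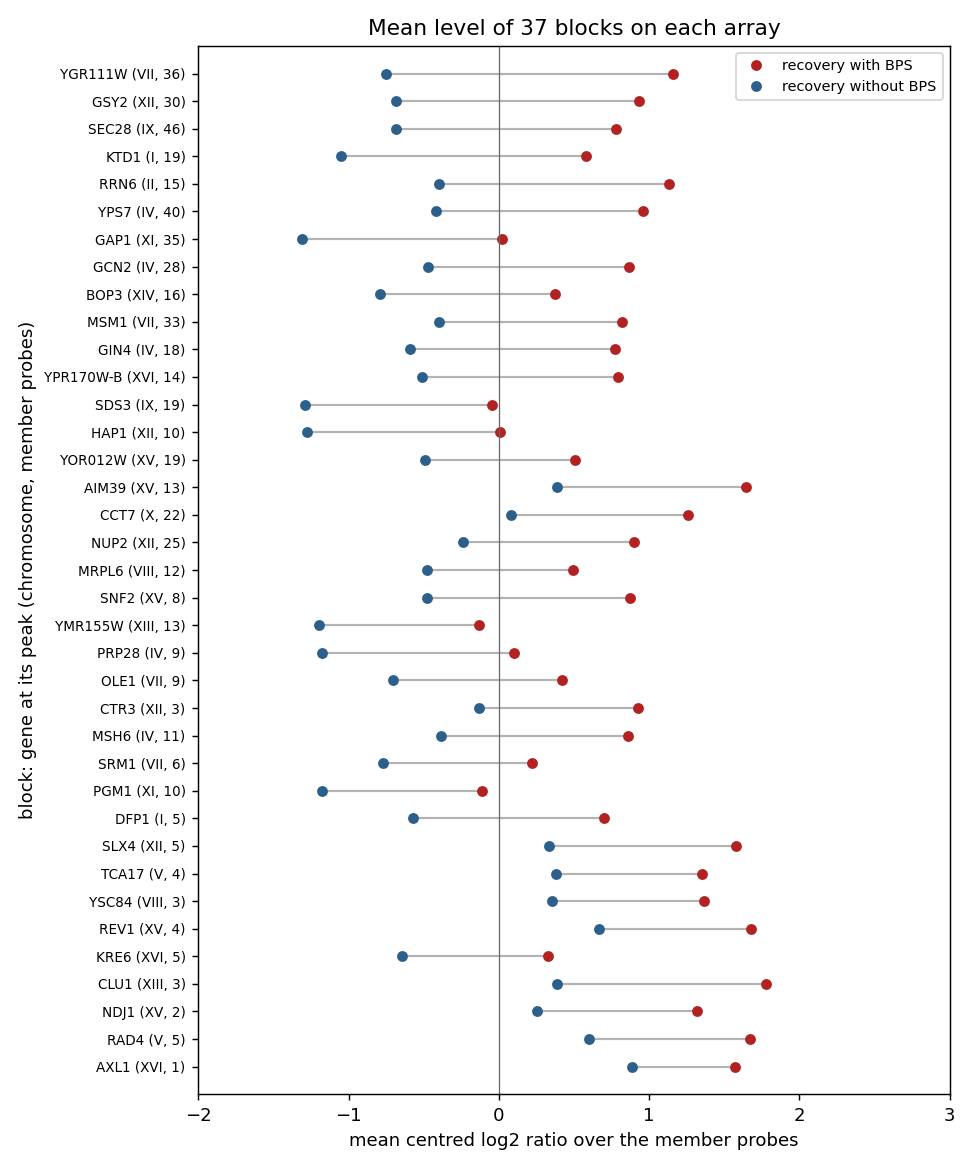
Mean centred log2 ratio over the member probes of each of 37 blocks, with BPS in red and without BPS in blue, ordered by peak difference, with chromosome and number of member probes in brackets. The blocks that average above 0 on both arrays lie mostly in the lower part of the plot, and those at GAP1, SDS3 and HAP1 sit near 0 with BPS and below −1.2 without it.

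The 3 largest blocks bordered stretches with no probes. Long gaps in yeast array designs are commonly places where the reference genome carries Ty retrotransposons, repeated elements that are hard to probe. The block at YGR111W on chromosome VII (712.5 to 722.3 kb, 36 probes) began at the edge of a gap of 5.37 kb that holds the reading frame YGR109W-B. Its deposited ratios had a geometric mean of 2.73 with BPS, with single probes from 0.307 to 8.03, and of 0.721 without BPS, with single probes from 0.359 to 1.90. At the peak (716.8 kb) the signal was 1.72 ± 0.13 with BPS and −0.80 ± 0.10 without BPS, a difference of 2.52 ± 0.09 (SE, 16 probes). That put the place at the 99.8th percentile of interior probes with BPS and at the 10.1st without BPS. Of the 36 probes 35 were higher with BPS.

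The genes under this block differed in size of gain along the chromosome. SHY1, which helps assemble cytochrome c oxidase, averaged 2.16 with BPS and −0.59 without BPS over 5 probes, a difference of 2.75 ± 0.14, the largest of any gene in the blocks. DAM1, of the kinetochore ring that holds microtubules, had 1.73 with BPS and −0.29 without BPS. CLD1, a phospholipase that trims cardiolipin and the nearest to the gap, had 0.47 with BPS and −1.44 without BPS. SPT6, a histone chaperone of transcription elongation on the far side, had 1.08 with BPS and 0.14 without BPS. Without BPS the signal climbed with distance from the gap, and with BPS it made a hill over SHY1.

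The block at GSY2 on XII (657.7 to 665.3 kb, 30 probes) had a similar outline. Its ratios had a geometric mean of 2.33 with BPS and 0.753 without BPS, and all 30 probes were higher with BPS. The peak difference was 2.001 ± 0.10, from a signal of 1.22 ± 0.15 with BPS and −0.79 ± 0.10 without BPS. GSY2, a glycogen synthase gene, averaged 1.72 with BPS and −0.47 without BPS. HSP60, the mitochondrial chaperonin gene beside it, had 0.74 with BPS and −0.36 without BPS. The gap, of 5.92 kb, lay 1.02 kb from the block. On its other side was the block at HAP1 (648.4 to 650.8 kb, 10 probes), with a mean signal of 0.005 with BPS and −1.28 without BPS. HAP1 encodes a transcription factor that responds to heme, and the reference strain is known to carry a Ty1 element at the end of this gene.

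On chromosome IX a gap of 5.47 kb, which holds the reading frame YIL082W-A, had a block on each side. The block at SEC28 (210.6 to 221.8 kb) was the one with most members, 46, of which 45 were higher with BPS. Its peak difference was 1.74 ± 0.12, from 1.27 with BPS and −0.47 without BPS. SEC28, of the COPI vesicle coat, averaged 1.59 with BPS and −0.45 without BPS, and RPN2, of the proteasome, had 1.51 with BPS and 0.03 without BPS. Nearer the gap, THS1, the threonyl-tRNA synthetase gene, had 0.41 with BPS and −1.26 without BPS, and AIR1, of the nuclear RNA surveillance complex TRAMP, had −0.48 with BPS and −1.63 without BPS. The block at SDS3, of the Rpd3 histone deacetylase complex (200.1 to 205.2 kb, 19 probes), averaged −0.05 with BPS and −1.29 without BPS. Its peak probe was at the 54.6th percentile with BPS and at the 0.570th without BPS.

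**Figure D3:**
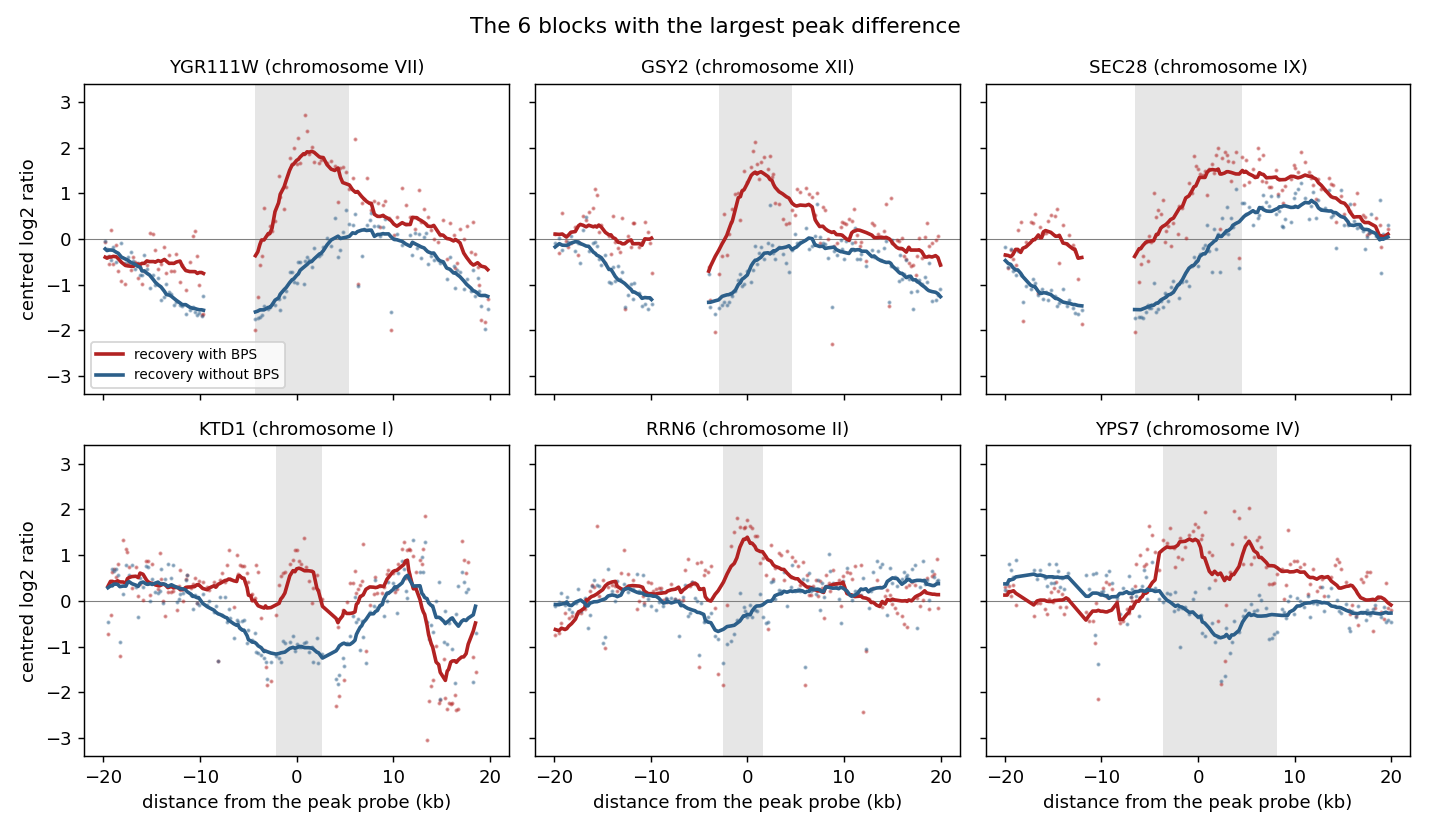
Centred log2 ratios around the 6 blocks with the largest peak difference, against distance from the peak probe in kb, as single probes (points) and smoothed tracks (lines), with BPS in red and without BPS in blue and the block shaded. In the upper row the tracks break at a probe-free gap, beside which the track without BPS lies between −1.3 and −1.6, and 2 of 1612 probe values lie outside the drawn range of 3.4 either way.

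Member probes lay near gaps of this kind more often than interior probes in general, and much of this came from the gaps on VII, XII and IX. Of the 38 blocks 9 lay within 2 kb of a gap over 4 kb, and 12 lay within 5 kb. Longer blocks reach a gap more easily, and no stretches of like length were counted beside them. Of the member probes 8.57% were within 2 kb of such a gap, compared with 1.72% of all interior probes, and within 10 kb the shares were 34.5% and 7.81%. With the 5 blocks at the gaps on VII, XII and IX left out, 2.86% of the remaining 419 members were within 2 kb and 13.4% within 10 kb. Of the 671 interior probes within 2 kb of a gap 48 were members, or 7.15%, compared with 1.44% of all interior probes. Most gaps had no block near them: of the 50 interior gaps 7 had one within 2 kb. The signal was higher with BPS at 47 of their 100 edges, by more than 1 at 5 of them and by more than 0.5 at 20, while at 12 it was lower by more than 0.5. The differences at the edges ran from −0.75 to 1.34 around a median of −0.04. Smoothing windows at an edge hold 7 to 9 probes at the gaps with a block, against a median of 15 elsewhere. Whether WFA73 carries these elements was not tested.

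**Figure D4:**
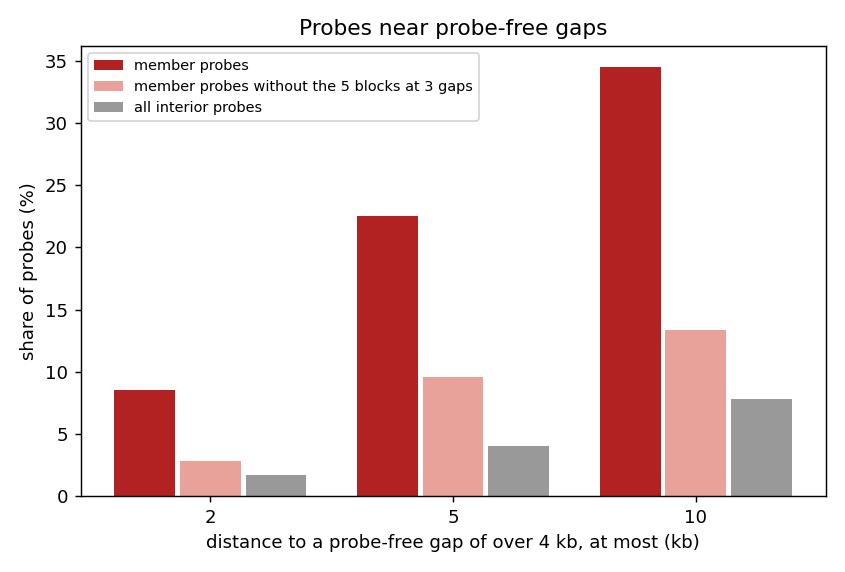
Share of probes, in percent, within 2, 5 and 10 kb of a probe-free gap of over 4 kb, for all 560 member probes, for the 419 left without the 5 blocks at 3 gaps, and for all 38960 interior probes. The bars for all members stand at 8.57%, 22.5% and 34.5%, and those for all interior probes at 1.72%, 4.07% and 7.81%.

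The other blocks within 2 kb of a gap were smaller. CTR3, a copper transporter gene, had 1.67 with BPS and 0.03 without BPS over 2 probes, and its block on XII (947.1 to 947.7 kb) held 3 member probes, of which 2 were higher with BPS. The block in MSH6, of DNA mismatch repair, on IV (641.9 to 644.1 kb, 11 probes) averaged 0.86 with BPS and −0.38 without BPS. The other two were those at RAD4, of nucleotide excision repair, on V and at NDJ1, of meiotic telomere attachment, on XV, with peak differences of 1.03 ± 0.09 and 1.04 ± 0.11.

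Several large blocks lay away from any gap, and their forms differed. At RRN6 on II (198.1 to 202.1 kb, 15 probes), a gene for a factor of ribosomal DNA transcription, the ratios had a geometric mean of 2.69 with BPS and 0.919 without BPS. The peak difference was 1.69 ± 0.12, from 1.39 ± 0.10 with BPS and −0.30 ± 0.08 without BPS. RRN6 itself differed by 1.85 ± 0.09 over 10 probes, while its neighbour FMT1, which formylates mitochondrial initiator tRNA, had 0.52 with BPS and −0.09 without BPS. The gain was therefore narrow, 5.47 kb between its points of mid-height. The surroundings had 0.28 with BPS and 0.20 without BPS, so the block was high with BPS and low without BPS.

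The longest block, at YPS7 on IV (1169.3 to 1181.2 kb, 40 probes), was high with BPS over the genes on both sides of a low stretch. YPS7, a protease gene of the cell surface, averaged 1.52 with BPS and −0.23 without BPS. ATP22, which activates translation of a mitochondrial ATP synthase subunit, had 1.31 with BPS and −0.61 without BPS. Between YPS7 and ATP22 lies the tRNA gene EMT1, whose single probe had −0.10 with BPS and −0.58 without BPS. Between YPS7 and EMT1, single member probes were lower still. The lowest had −1.81 with BPS and −1.75 without BPS, and its neighbour −1.31 with BPS and −1.64 without BPS. At the outer edges, MRP1, of the mitochondrial ribosome, had 1.39 with BPS and 0.09 without BPS, and SBE2, which has a part in bud growth, had 0.81 with BPS and −0.39 without BPS.

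GCN2, whose kinase slows translation when amino acids run short, named a block on IV (1019.6 to 1027.2 kb, 28 probes) with a peak difference of 1.59 ± 0.11. Its surroundings were high on both arrays, at 0.64 with BPS and 0.65 without BPS, and the block stood at 0.86 with BPS and −0.47 without BPS. What differed was a valley without BPS that was not there with BPS. RRP45, of the RNA exosome, differed by 1.64 ± 0.16 over 4 probes. RNH202, of ribonuclease H2, had 1.14 with BPS and 0.03 without BPS.

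Chromosome I had a block beside KTD1 (183.5 to 188.3 kb, 19 probes), 41.7 kb from the chromosome end and the closest of all to an end. All 19 probes were higher with BPS, with ratios from 0.994 to 3.16 with BPS and from 0.471 to 0.711 without BPS. The surroundings had 0.48 with BPS and 0.12 without BPS, against which the block differed by 0.11 with BPS and by −1.17 without BPS. UIP3, KTD1, PRM9 and MST28 belong to the DUP240 family of membrane protein genes, and similar copies in the genome can share signal at a probe. UIP3 averaged 0.53 with BPS and −1.10 without BPS, and PRM9 had 0.22 with BPS and −1.16 without BPS. A second small block, in DFP1 (179.6 to 180.5 kb, 5 probes), had 0.70 with BPS and −0.57 without BPS. Whether probes of either block share signal with similar copies was not tested.

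Blocks with peak differences between 1.2 and 1.5 also differed in form. The block at BOP3 differed from its surroundings by 0.11 with BPS and by −1.05 without BPS, and that at MSM1 by 1.01 with BPS and by −0.45 without BPS. At BOP3 on XIV (546.5 to 550.7 kb), BOP3 averaged 1.26 with BPS and −0.71 without BPS, and COG6, of a Golgi tethering complex, had 0.73 with BPS and −0.24 without BPS. The block at MSM1 on VII (839.3 to 848.7 kb, 33 probes) ran from PSD2, a phosphatidylserine decarboxylase gene with 1.54 with BPS and 0.66 without BPS, to ERG1, of sterol synthesis, with 0.27 with BPS and −0.69 without BPS. Between them RBG2, a GTPase gene, differed most, by 1.89 ± 0.14. GIN4, a kinase gene of septin assembly on IV (1460.7 to 1465.1 kb), averaged 1.01 with BPS and −0.50 without BPS over 13 probes. BSP1, under the block at YPR170W-B on XVI (880.8 to 884.7 kb), had 1.57 with BPS and 0.34 without BPS.

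The remaining blocks of that size were on VIII, X, XII and XV. At NUP2, a nuclear pore gene on XII (793.5 to 800.1 kb, 25 probes), the block stood at 0.90 with BPS and −0.24 without BPS. At CCT7, of the cytosolic chaperonin on X (206.2 to 211.2 kb), all 22 probes were higher with BPS, and the block had 1.26 with BPS and 0.08 without BPS. MRPL6, of the mitochondrial ribosome, and CRP1, whose protein binds cruciform DNA, shared a block on VIII (388.8 to 393.0 kb) at 0.49 with BPS and −0.48 without BPS, which differed from its surroundings by 0.20 with BPS and by −0.85 without BPS. On XV, the block at YOR012W (351.1 to 357.9 kb) reached from the sterol transporter gene AUS1, with 0.98 with BPS and −0.09 without BPS, to RTS1, of protein phosphatase 2A, with 0.99 with BPS and 0.13 without BPS. In SNF2, the motor of the SWI/SNF chromatin remodeller (855.9 to 858.0 kb), 8 probes averaged 0.87 with BPS and −0.48 without BPS.

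One form was a deep valley without BPS that reached only about the genome median with BPS. GAP1, the general amino acid permease gene, lay in such a block on XI (513.7 to 522.7 kb, 35 probes). Its ratios had a geometric mean of 1.24 with BPS and 0.490 without BPS, with single probes from 0.316 to 2.78 with BPS and from 0.347 to 0.670 without BPS. The block averaged 0.02 with BPS and −1.31 without BPS, and the surroundings 0.21 with BPS and 0.20 without BPS. GAP1 itself had 0.50 with BPS and −1.39 without BPS over 8 probes, a difference of 1.89 ± 0.15. SHB17, a sugar bisphosphatase gene, had 0.24 with BPS and −1.29 without BPS, and YKR041W had −0.52 with BPS and −1.69 without BPS.

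Other valleys without BPS were shorter. PRP28, a splicing helicase gene on IV (946.8 to 949.5 kb), had a block at 0.10 with BPS and −1.17 without BPS, and the block at YMR155W on XIII (566.4 to 569.8 kb) stood at −0.13 with BPS and −1.20 without BPS. At PGM1, a phosphoglucomutase gene on XI (201.9 to 205.1 kb), the block averaged −0.11 with BPS and −1.18 without BPS, and it lay below its surroundings on both arrays, which had 0.92 with BPS and 0.71 without BPS. OLE1, the fatty acid desaturase gene on VII (396.7 to 399.3 kb), had ratios from 1.41 to 1.87 with BPS and from 0.580 to 1.04 without BPS over the 9 probes of its block. SRM1, the nucleotide exchange factor gene of nuclear transport, on VII (321.4 to 322.8 kb) had a block at 0.22 with BPS and −0.77 without BPS in low surroundings, at −0.50 with BPS and −0.71 without BPS, so it stood out with BPS and was no valley without it. KRE6, of cell wall glucan synthesis, on XVI had a peak difference of 1.05 ± 0.14, in a block below the median without BPS.

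The 10 blocks above the median on both arrays stood above their surroundings with BPS, by 0.57 to 1.64. Without BPS those at YSC84, REV1, RAD4 and AXL1 stood above theirs by 0.68 to 0.97, and the other 6 differed by −0.22, at NDJ1, to 0.16, at CLU1. The largest was at AIM39 on XV (229.0 to 232.2 kb, 13 probes), at 1.64 with BPS and 0.38 without BPS. PSH1, a ubiquitin ligase gene that acts on the centromeric histone, had 2.18 with BPS and 0.30 without BPS there, although 1 probe of the block was 1.05 lower with BPS. CLU1 on XIII averaged 1.78 with BPS and 0.38 without BPS over its 3 members, the highest mean with BPS of any block. REV1, the translesion polymerase gene on XV, had 1.70 with BPS and 0.53 without BPS over 13 probes of the gene. SLX4, the scaffold gene of structure-specific nucleases on XII, had 1.47 with BPS and 0.24 without BPS over 10 probes. TCA17 on V, YSC84 on VIII and AXL1 on XVI had peak differences of 1.08, 1.07 and 1.00, AXL1 with 1 member probe. The median peak difference of these 10 blocks was 1.07, and whether they passed depended on the scaling. Once both arrays were put on one robust SD, 4 of the 10 still exceeded 1, after quantile normalization 2, and after removal of a linear trend of the difference on mean level 2. All 25 blocks that crossed the median and the 3 below it on both arrays still exceeded 1 under each of those settings. For the 3 below it, the median peak difference rose from 1.195 to 1.26, 1.33 and 1.29 in that order. Their passing therefore says nothing about robustness. The 25 moved both ways: under quantile normalization HAP1 rose from 1.343 to 1.498, and CTR3 fell from 1.163 to 1.029. The contrast with the 10 blocks thus partly reflects how these settings shift differences with level.

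**Figure D5:**
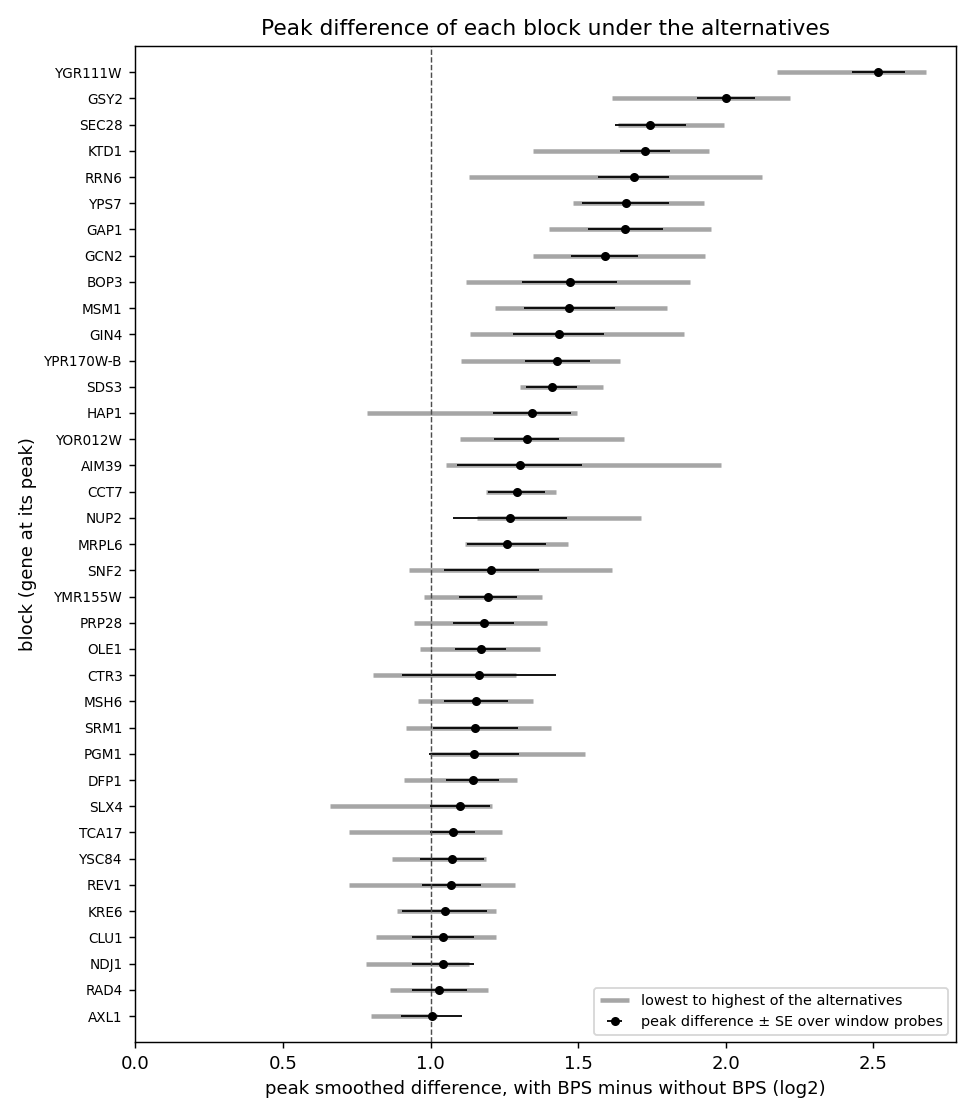
Peak smoothed difference of each of 37 blocks, with BPS minus without BPS in log2 units, as points with the SE over the probes of the window, and the lowest to highest value under the alternative settings as grey bars. The dashed line is the threshold of 1, which 18 of the 37 bars lie wholly above, among them the 10 largest blocks.

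The values near the threshold passed into each other without a step. The last 3 probes inside, at RIM13, HAP1 and SPT2, had 1.0001, 1.0002 and 1.0023. The first 3 outside, at PSD2, RIM13 and PGM1, had 0.9997, 0.9996 and 0.9993. Dividing each array by its robust SD kept a member in 32 of the 38 blocks, and quantile normalization in 30. Tracks made from odd-numbered or even-numbered probes alone kept a member in 31 and 35 blocks. The same probes had chosen the blocks, so keeping most of them was largely fixed in advance. These values describe noise between probes and scaling, not between cultures.

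The gain within blocks was larger in reading frames than between them. Member probes in protein reading frames, 392 of 560 or 70%, had a median single-probe difference of 1.41, with a level of 1.00 with BPS and −0.49 without BPS. The 168 members between frames had a median difference of 1.12, with 0.56 with BPS and −0.86 without BPS. Of the probes between frames 11.3% were not higher with BPS, compared with 2.04% of those in frames. Outside the blocks the median differences were −0.03 in frames and −0.10 between them. The share of all interior probes in frames was 74.4%. Base composition of the probes was not analysed here.

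The blocks overlapped 108 annotated genes, 94 of them for proteins, out of 5990 interior genes. Over their own probes 75 of the 94 protein genes were more than 1 higher with BPS, as were 2.3% of all 5352 interior protein genes with a probe. This share follows from the rule. The median difference was 1.27 for the 94 genes and −0.03 for all interior protein genes. One gene, the small frame YPR159C-A with 1 probe, was lower with BPS, by −0.11.

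No gene of 3 lists tied to iron lay in a block, although HAP1, whose protein responds to heme, and OLE1, which encodes an iron-dependent desaturase, are on none of the lists and did. None of 25 interior genes of the iron uptake and storage response, none of 15 iron-dependent enzymes of DNA and deoxynucleotide synthesis and none of 25 genes of iron-sulfur cluster assembly overlapped a block, where 1.80% of all interior genes did. At that share fewer than 1 gene of each list would lie in a block, so these zeros carry little information. The median difference was −0.02 for the iron response, −0.12 for the iron-dependent enzymes and −0.02 for cluster assembly, beside −0.04 for all genes. None of 58 genes of replication initiation, forks and their checkpoint overlapped a block, with a median difference of 0.01. At a share of 1.80% few of these genes would lie in a block, so this zero carries little information too.

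Of 29 interior amino acid permease and nitrogen genes, 3 overlapped a block, or 10.3%, beside 1.80% of all interior genes. They were GAP1, GCN2 and GZF3, the gene of a repressor of nitrogen-regulated genes, which averaged 1.26 with BPS and 0.26 without BPS. The lists were chosen with earlier results of these data known, so this count is a description and no independent overlap. The median difference of that list was 0.10. Mitochondrial ribosomal protein genes gave 2 of 67, MRP1 and MRPL6, and cytosolic ones 1 of 137, RPS25B, with 0.87 with BPS and −0.47 without BPS over 2 probes. Of 104 frames of 5 kb or longer 1, SNF2, overlapped a block, or 0.96%, beside 1.80% of all interior genes. Only 67 of the 104 held a probe, so this count does not show that long frames were spared. The 3 small nucleolar RNA genes in blocks, SNR55, SNR57 and SNR61, lie together near NUP2 and held no probe.

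Transfer RNA genes, next to which Ty1 and Ty3 elements are known to insert, overlapped blocks in 11 of 271 cases, or 4.06%, in 10 separate blocks, compared with 1.80% of all interior genes. Only 55 of the 271 held a probe, and of the 11 only EMT1 did. Over those 55 the median difference was −0.36, lower with BPS, beside −0.04 for all interior genes. When gene positions were moved by 1 kb the count was 19 one way and 9 the other, so it depends on how well the gene table and the probe positions line up. Among blocks away from gaps, those at YPS7, GIN4, MSM1, BOP3, MRPL6, PGM1, GAP1, YOR012W and NUP2 held one or more.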

How the data were processed

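Break-chip signal was measured on 2 arrays, 1 with BPS and 1 without, grouped by the Cy3 source name. The submitters' processing notes name Agilent Feature Extraction 9.5.1 for reading the arrays. The values deposited by the authors are linear ratios, 1 for each probe on each array, in a table whose name calls them normalized. The normalization, numerator and genome build are not given in the sources used here. A normalization between dyes removes differences in total breakage, and a single dye orientation leaves dye bias.

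Ratios were converted to log2, centred on each array's median and averaged over probes within 2 kb, with no filter, using Python 3.11.15, numpy 2.4.6 and pandas 2.3.3. The steps were tested on simulated data. The number of arrays limits the precision, so no test was run and no p-value computed. Levels of genes are means over the probes in them. Gene names and neighbours came from RefSeq assembly R64. Whether it lines up was checked on 26 long reading frames with a -B locus tag, which held 2 probes in place and 28 or 29 when moved by 0.5 kb. These frames were listed in place of an annotated Ty list. None overlapped a block, but only 1 of the 24 interior ones held a probe, so the array design left little room for overlap.

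Blocks were named by their peak gene, except 1 that is counted but not reported here by itself, and genes of the 10 largest blocks and of the lists by rule. Other genes under blocks were named after their values were seen. The members and lists were chosen with earlier results of these data known. Of 61 replication genes 59 matched a symbol. The planned promoter features were not run, since no sequence was used here.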

Additional observations from a re-analysis of the deposited data

How the results depend on the processing

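No paired analysis was possible because each group had 1 array, and no replicate could be left out. All 38 blocks had a positive peak difference under all 10 alternative tracks, or 9 for CTR3 and NDJ1, whose probes all lie within 2 kb of a gap. The rule chose the blocks by a difference above 1 on the same arrays, so positive values were largely fixed in advance. Of the 38, 18 exceeded 1 in each, and the lowest value was 0.66. Windows of 1 kb gave 631 probes in 61 blocks and windows of 4 kb gave 408 probes in 21 blocks. A threshold of 0.75 gave 1175 probes in 67 blocks, and 1.5 gave 105 probes in 9 blocks. The other settings gave 419 to 771 probes and 33 to 51 blocks, apart from 275 and 317 probes in the odd-numbered and even-numbered tracks. Chosen after seeing the data were these tracks and the removal of a trend on mean level or of blocks at 3 gaps. Without probes within 2 kb of gaps the peak at HAP1 was 0.78. Genes moved up by 1 kb gave 19 tRNA genes, 2 frames of 5 kb or longer, 2 long -B frames and 1 mitochondrial ribosomal protein gene in blocks. Genes moved down gave 1 iron gene, 3 frames of 5 kb or longer, 1 long -B frame and 1 mitochondrial ribosomal protein gene. Fewer probes per window, or wider ones, change these counts by construction, and the cause of the other changes was not tested.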
